A study of Mus musculus with 6 samples.

Results

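Endothelial identity and VEGF receptor genes are described here in kidneys after unilateral ureteral obstruction, an operation that blocks 1 ureter and lets the kidney behind it scar. The 10 members were taken by gene name from a table of 33679 genes: Pecam1, Cdh5, Eng, Emcn, Plvap, Ehd3, Kdr, Flt1, Tek and Tie1. All 10 were found and all 10 passed the filter on low values, set at 0.5 FPKM averaged over the 4 libraries, which kept 16871 genes. FPKM is a fragment count divided by transcript length and by the mapped fragments of the library. Whole kidney mRNA was sequenced from mice of genotype Cd248 KO and from wild type mice, all of them obstructed. The labels name 3 samples of each genotype, and the table used here has a column for replicate 1 of the knockout and for all 3 wild type replicates. The other 2 knockout samples were not analysed here. No age, strain or time after surgery is given in the labels, and the protocol speaks of pooled RNA, so the p-values below reflect library-to-library spread that could be technical.

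The kidney holds several kinds of capillary. Glomerular capillaries filter the blood and carry open fenestrae, while peritubular capillaries surround the tubules and carry fenestrae closed by diaphragms. VEGF-A made by tubule cells and podocytes acts on endothelial receptors, angiopoietins act on the TIE receptors, and both pathways keep these capillaries in place. Loss of peritubular capillaries is a known feature of the obstructed, fibrotic kidney. CD248 (endosialin) is a surface glycoprotein of fibroblasts and pericytes, the cells that lie against these capillaries.

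Cd248 (ENSMUSG00000056481) had a listed value of 0 in the Cd248 KO library, against 9.03, 9.57 and 8.78 FPKM in the wild type libraries, replicates 1 to 3. The direction followed the labels. Between 14535 and 14820 genes reached 1 FPKM in each library. The FPKM total was 304426 in the Cd248 KO library and between 267394 and 285322 in the wild type libraries. Immunoglobulin genes took 5.99% of that total in the knockout library and 0.113% to 0.202% in the wild type libraries. Kidney cell types were present in every library: podocyte markers and proximal tubule markers were above 0 in all 4.

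The regulatory sequence in front of these genes is shown for the VEGF receptor genes Kdr and Flt1, and for Emcn, because its upstream region is the one that holds a full ETS-type motif. ETS factors such as ERG and FLI1 bind a GGAA core and maintain endothelial gene expression. RefSeq promoter windows (GRCm38.p6, from 250 bases before to 50 bases after the start) were matched for 7 of the 10 members: Eng, Emcn, Tek, Tie1, Kdr, Flt1 and Ehd3. The stretches below run 5′ to 3′ on the strand of the gene, from base -250 to base -21 relative to the start, with 230 bases each. They lie at chr5:75978476-75978705 (minus strand) for Kdr, chr5:147726032-147726261 (minus strand) for Flt1 and chr3:137340828-137341057 (plus strand) for Emcn. Capitals mark the core GGAA on either strand (TTCC on the other) and, in Emcn, the longer motif CAGGAAG, read there as CTTCCTG.
Kdr: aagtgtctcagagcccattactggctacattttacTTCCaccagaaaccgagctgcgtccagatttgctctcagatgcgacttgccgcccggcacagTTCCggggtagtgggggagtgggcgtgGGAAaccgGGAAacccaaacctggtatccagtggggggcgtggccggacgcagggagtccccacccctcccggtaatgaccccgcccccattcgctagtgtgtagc
Flt1: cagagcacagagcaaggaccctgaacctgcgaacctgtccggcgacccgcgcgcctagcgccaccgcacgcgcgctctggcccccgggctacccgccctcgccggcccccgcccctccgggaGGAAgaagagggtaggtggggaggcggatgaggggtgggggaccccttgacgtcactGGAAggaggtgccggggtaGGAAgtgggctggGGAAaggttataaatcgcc
Emcn: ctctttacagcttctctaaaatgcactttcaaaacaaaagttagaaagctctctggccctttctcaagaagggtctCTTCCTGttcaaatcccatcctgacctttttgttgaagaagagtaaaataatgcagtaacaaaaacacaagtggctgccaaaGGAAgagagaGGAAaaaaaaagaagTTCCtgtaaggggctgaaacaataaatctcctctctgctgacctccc

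Motifs were searched on both strands of the whole 300-base windows. The core GGAA occurred in 7 of 7 windows of the members, with 2 to 9 matches and a median of 4. It also occurred in 96.0% of 32851 promoter windows, with a median of 3, so its presence does not set these genes apart. The longer ETS-type motif CAGGAAG, which contains the core, occurred in 2 of 7, Emcn at base -174 and Ehd3 at base 6, and in 13.3% of all windows. The ETS-type motif CCGGAAG occurred in 0 of 7 and in 8.86% of all windows. The FOX-type motif TGTTTAC occurred in 0 of 7 and in 3.65% of all windows, and the GATA-type motif AGATAA in 1 of 7, Tek at base 37, and in 11.2% of all windows. These matches describe letters and not binding.

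The FPKM of every member was lower in the knockout library than in any wild type library, and none of the differences passed the test over all genes. The members summed to 170.5 FPKM in the Cd248 KO library, and to 236, 284 and 224 FPKM in the wild type libraries, in the order of their replicate numbers, which is kept throughout. The largest difference was that of Cdh5, at 0.533 of the wild type mean, followed by Eng at 0.642. The smallest was that of Kdr, at 0.837. Bulk tissue does not tell fewer endothelial cells from less RNA per cell.

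By limma's moderated test with Benjamini-Hochberg adjustment over all 16871 genes, 0 of 10 members passed at 0.05, and their adjusted p lay between 0.278 and 0.705. Over all genes, 14 were called lower in the knockout library, which is 0.083%, and 108 were called higher, which is 0.64%. At an unadjusted p under 0.05, 5 of 10 members were lower (Cdh5, Eng, Tie1, Emcn and Tek), against 5.63% of all genes. The knockout value lay below every wild type value for 10 of 10 members, against 31.2% of all genes, while 28.0% of all genes lay above every wild type value. The median difference of the members on the log2(FPKM + 1) scale was -0.43, and that of all tested genes was -0.01. This scale understates the change of low genes. The members are expressed by the same cells, so their differences are not 10 independent observations.

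Scaling the libraries to the same FPKM total moved the median of all genes to -0.11 and that of the members to -0.55, and the knockout value still lay below every wild type value for 10 of 10. With 1 library against 3, an exact permutation test of a single gene cannot give p below 0.25.

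**Figure D1:**
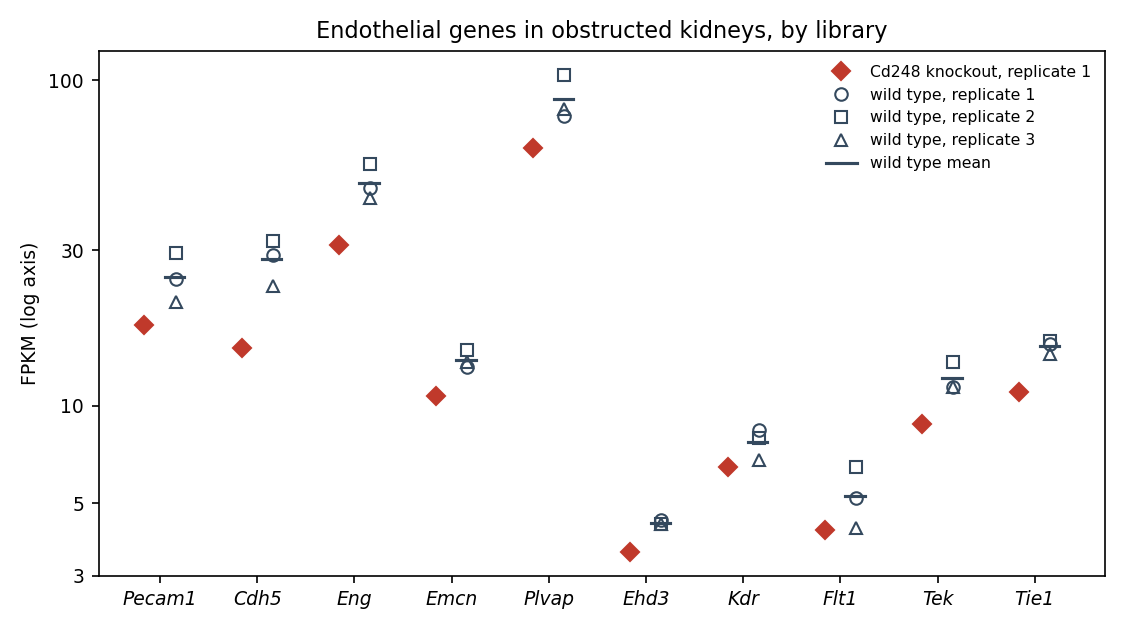
FPKM on a log axis (vertical) for the 10 endothelial genes (horizontal) in the knockout library (filled diamonds) and in wild type replicates 1, 2 and 3 (open circles, squares and triangles, with a bar at their mean). In each gene the knockout value lies under all 3 wild type values, by a wide gap in Cdh5 (15.0 FPKM against 23.3 to 32.1 FPKM) and hardly at all in Flt1 (4.15 FPKM against 4.21 to 6.47 FPKM).

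Junctional and surface identity genes come first. Cdh5 encodes VE-cadherin, the cadherin of endothelial junctions (ENSMUSG00000031871; mm10, chromosome 8, 104101625 to 104144511, plus strand). It was at 15.0 FPKM in the Cd248 KO library, against 29.1, 32.1 and 23.3 FPKM in the wild type libraries. The knockout value was 35.6% under the lowest wild type value. The difference was -0.85 on the log2 scale (SE 0.19, 95% interval -1.38 to -0.33, limma adjusted p = 0.305). Pecam1 encodes CD31, an adhesion molecule of endothelial junctions that leukocytes and platelets carry too (ENSMUSG00000020717; chromosome 11, 106654217 to 106750628, minus strand). It was at 17.7 FPKM in the Cd248 KO library, against 24.5, 29.4 and 20.8 FPKM in the wild type libraries. Replicate 3 was the nearest to the knockout library, and the difference was -0.45 (SE 0.21, 95% interval -1.01 to 0.10, limma adjusted p = 0.529).

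Cdh5 and Pecam1 mark the same junctions, and their levels stood in a different proportion. Cdh5 exceeded Pecam1 in each wild type library and was lower than Pecam1 in the knockout library. The ratio of Cdh5 to Pecam1 was 0.846 in the knockout library, against 1.19, 1.09 and 1.12 in the wild type libraries. Its log2 difference was -0.42, where the wild type SD was 0.06 (exact permutation p = 0.25, the smallest possible). This ratio was singled out after its values were seen. Such ratios within a library do not depend on how libraries are scaled.

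Emcn encodes endomucin, a sialoglycoprotein of capillary and venous endothelium (ENSMUSG00000054690; chromosome 3, 137341067 to 137432185, plus strand). It was at 10.7 FPKM in the Cd248 KO library, against 13.1, 14.8 and 13.6 FPKM in the wild type libraries, with a difference of -0.34 (SE 0.10, limma adjusted p = 0.406). The wild type values were close together, with an SD of 0.859 FPKM around 13.8 FPKM. Eng encodes endoglin, a co-receptor for ligands of the TGF-beta family including BMP9 (ENSMUSG00000026814; chromosome 2, 32646595 to 32682669, plus strand). It was at 31.1 FPKM in the Cd248 KO library, against 46.7, 55.2 and 43.3 FPKM in the wild type libraries, with a difference of -0.62 (SE 0.16, 95% interval -1.05 to -0.19, limma adjusted p = 0.343). The knockout value of Eng was 28.2% under the lowest wild type value.

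Plvap and Ehd3 relate to the origin of the endothelial mRNA. Plvap encodes the protein of fenestral diaphragms and is a gene of peritubular rather than mature glomerular capillaries (ENSMUSG00000034845; chromosome 8, 71497765 to 71511752, minus strand). It was at 62.0 FPKM in the Cd248 KO library, against 77.5, 104 and 81.5 FPKM in the wild type libraries (difference -0.48, SE 0.20, 95% interval -1.01 to 0.05, limma adjusted p = 0.499). Ehd3 encodes an endocytic recycling protein that in mouse kidney marks glomerular endothelium (ENSMUSG00000024065; chromosome 17, 73804134 to 73832094, plus strand). It was at 3.55 FPKM in the Cd248 KO library, against 4.46, 4.31 and 4.31 FPKM in the wild type libraries (difference -0.24, SE 0.09, 95% interval -0.48 to 0.0088, limma adjusted p = 0.478). Both lay below every wild type library, Plvap by 20.0% and Ehd3 by 17.6% of the lowest wild type value. The ratio of Ehd3 to Plvap was 0.0572 in the knockout library, inside the wild type values of 0.0575, 0.0414 and 0.0529 (log2 difference 0.19, exact permutation p = 0.75). Leaving out wild type replicate 1 gave 0.29, and leaving out replicate 2 gave 0.054. A shift between the glomerular and the peritubular gene was therefore not detectable with these libraries.

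Of the VEGF receptors, Kdr encodes VEGFR2, which carries most of the endothelial response to VEGF-A (ENSMUSG00000062960; chromosome 5, 75932827 to 75978458, minus strand). It was at 6.46 FPKM in the Cd248 KO library, against 8.41, 7.93 and 6.82 FPKM in the wild type libraries (difference -0.22, SE 0.14, 95% interval -0.59 to 0.14, limma adjusted p = 0.626). Flt1 encodes VEGFR1, which binds VEGF-A tightly and, in a soluble form, withholds it from VEGFR2 (ENSMUSG00000029648; chromosome 5, 147561604 to 147726011, minus strand). It was at 4.15 FPKM in the Cd248 KO library, against 5.18, 6.47 and 4.21 FPKM in the wild type libraries (difference -0.27, SE 0.22, 95% interval -0.87 to 0.33, limma adjusted p = 0.705). Leaving out wild type replicate 2 gave Flt1 a difference of -0.14, and leaving out replicate 3 gave -0.40. For both receptors wild type replicate 3 was the lowest, and the knockout values lay 5.28% under it for Kdr and 1.43% under it for Flt1. The gene-level table does not separate the soluble from the membrane form of Flt1. The ratio of Flt1 to Kdr was 0.642 in the knockout library, inside the wild type values of 0.616, 0.816 and 0.617 (exact permutation p = 1.0).

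Of the TIE receptors, Tek encodes TIE2, the angiopoietin receptor (ENSMUSG00000006386; chromosome 4, 94739289 to 94874976, plus strand), and was at 8.76 FPKM in the Cd248 KO library, against 11.4, 13.65 and 11.4 FPKM in the wild type libraries. Tie1 encodes its partner receptor (ENSMUSG00000033191; chromosome 4, 118471191 to 118490061, minus strand) and was at 11.0 FPKM in the Cd248 KO library, against 15.45, 15.75 and 14.4 FPKM in the wild type libraries. The knockout values were 23.0% and 23.6% under the lowest wild type values of Tek and Tie1. The wild type coefficient of variation was 10.8% for Tek and 4.55% for Tie1. The differences were -0.42 for Tek (SE 0.14, limma adjusted p = 0.425) and -0.43 for Tie1 (SE 0.09, 95% interval -0.68 to -0.18, limma adjusted p = 0.278), the lowest adjusted p of the members. The ratio of Tek to Tie1 was 0.794 in the knockout library, inside the wild type values of 0.737, 0.867 and 0.789.

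**Figure D2:**
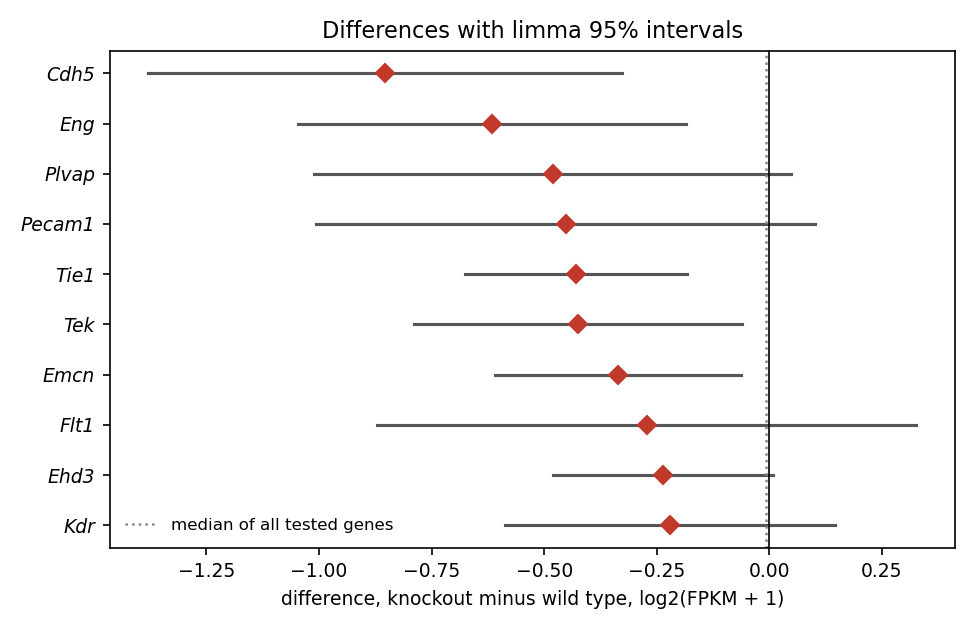
Difference of the Cd248 KO library from the wild type mean on the log2(FPKM + 1) scale (horizontal) for each endothelial gene (vertical), with limma's 95% intervals as bars and the median of all tested genes as a dotted line. All 10 points are left of 0, from -0.85 for Cdh5 to -0.22 for Kdr, and the unadjusted intervals of Plvap, Pecam1, Flt1, Ehd3 and Kdr include 0.

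The members also differed among the wild type libraries. Replicate 2 was the highest for 8 of 10 members, all except Kdr and Ehd3. Replicate 3 was the lowest for 6 of 10. The shares of all genes with replicate 2 highest or replicate 3 lowest were not computed. The wild type coefficient of variation ran from 1.99% for Ehd3 to 21.4% for Flt1. Without wild type replicate 2 the members' median was -0.34.

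By wild type mean, per transcript length, the order of levels was Plvap, Eng, Cdh5, Pecam1, Tie1, Emcn, Tek, Kdr, Flt1 and Ehd3, from 87.7 ± 14.3 FPKM down to 4.36 ± 0.0866 FPKM (SD, n = 3). The wild type ranges of Cdh5 and Pecam1 overlapped, as did those of Tie1 and Emcn, of Emcn and Tek, and of Flt1 and Ehd3. Within each library, though, every neighbour in this order stood the same way in 3 of 3 wild type libraries, except that Flt1 exceeded Ehd3 in 2 of 3. The knockout library had the same order except that Pecam1 stood above Cdh5.

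Set against the geometric mean of Pecam1 and Cdh5 in the same library, Kdr was at 0.396 in the knockout library, against 0.315, 0.258 and 0.310 in the wild type libraries. Flt1 was at 0.254 in the knockout library, against 0.194, 0.211 and 0.191 on this measure. Kdr to Cdh5 alone was 0.431 in the knockout library, against 0.289, 0.247 and 0.293. Most other members did the same. Of the 8 members besides Pecam1 and Cdh5, 7 lay above every wild type value on this measure. Tek was at 0.537 in the knockout library, against 0.427, 0.444 and 0.518, and Emcn at 0.658, against 0.491, 0.481 and 0.617. Eng was the exception, at 1.905 in the knockout library, inside the wild type values of 1.75, 1.80 and 1.97. The measure holds Cdh5, the member with the largest difference, at 0.533 of its wild type mean, and Pecam1, at 0.713. A gene that was lower by less, or was unchanged, therefore tends to rise on it. The count of 7 thus shows no gain of these genes, and the share of all genes above every wild type value on this measure was not computed. Of 16 ratios computed, none could reach an exact permutation p below 0.25.

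**Figure D3:**
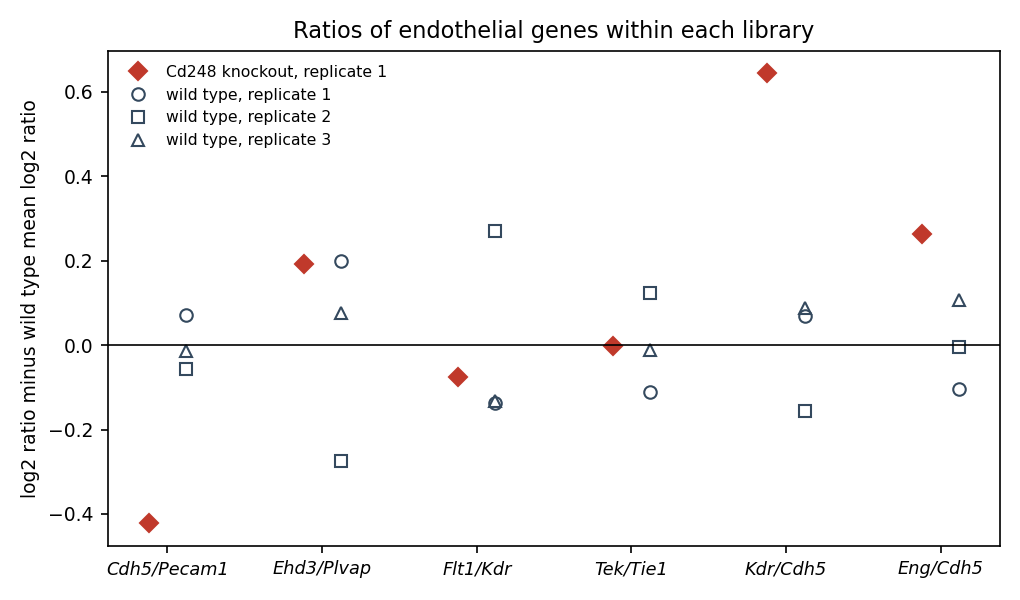
Log2 ratio between pairs of endothelial genes in each library, minus the wild type mean of that ratio (vertical), for 6 pairs (horizontal), with the knockout library as filled diamonds and the wild type libraries as open symbols. The knockout library falls within the wild type spread for Ehd3/Plvap, Flt1/Kdr and Tek/Tie1. It falls below it for Cdh5/Pecam1 (-0.42) and above it for Kdr/Cdh5 (0.64) and Eng/Cdh5 (0.26). Each pair outside the spread holds Cdh5, so these pairs are not independent observations.

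Other genes of the same cells gave values of similar size. Counts for this and all later lists are to be read against all tested genes, of which 31.2% lay below and 28.0% above every wild type library. The lists were chosen with earlier results of these data known. Of 24 further pan-endothelial genes, 0 passed the test, and 19 lay below and 0 above every wild type library, with a median difference of -0.44. Ecscr, an endothelial surface regulator, was at 9.08 FPKM in the Cd248 KO library against 16.1 ± 1.28 FPKM in wild type (SD, n = 3; limma adjusted p = 0.172). Adgrl4, an adhesion receptor of endothelium, was at 13.65 against 20.7 ± 2.78 FPKM, and Egfl7, a secreted endothelial factor, at 17.7 against 22.3 ± 2.39 FPKM. Ramp2, a partner of the adrenomedullin receptor, did not follow, at 13.8 FPKM in the Cd248 KO library against 18.2, 8.60 and 6.64 FPKM. Tm4sf1, a tetraspanin-like surface protein, was at 11.8 against 17.9 ± 1.78 FPKM, and Sema3g, an endothelial semaphorin, at 19.95 against 20.8 ± 3.89 FPKM.

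Among 19 tested endothelial transcription factors, 0 passed, 13 lay below and 1 above every wild type library, with a median of -0.21. Epas1, the hypoxia-inducible factor of endothelium, was at 20.2 FPKM in the Cd248 KO library against 23.5 ± 1.62 FPKM in wild type, and Lmo2, a bridging factor of endothelial and blood transcription complexes, at 18.2 against 19.7 ± 2.45 FPKM. Klf2, a factor induced by blood flow, was at 12.3 against 16.4 ± 2.36 FPKM, and Elk3, an ETS factor, at 13.75 against 19.1 ± 2.26 FPKM.

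Ligands of these receptors come next. Vegfa, the main ligand of Kdr and Flt1, was at 38.85 FPKM in the Cd248 KO library, against 47.65, 40.6 and 34.1 FPKM in the wild type libraries (difference -0.06, limma adjusted p = 0.939). Vegfb, a ligand of Flt1, was at 12.5 against 12.1 ± 1.32 FPKM (difference 0.05). The knockout values of both lay within the wild type range. Those of the receptors lay under it by small gaps, 5.28% for Kdr and 1.43% for Flt1. Of the 8 genes of VEGF ligands, co-receptors and the lymphatic receptor Flt4, 0 passed and 6 lay below every wild type library, with a median of -0.38. Nrp2, a co-receptor, was at 6.51 against 10.4 ± 0.284 FPKM (difference -0.60, limma adjusted p = 0.139), and Nrp1 at 11.05 against 14.5 ± 1.22 FPKM (difference -0.36, limma adjusted p = 0.431).

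Angpt2, which endothelium releases on activation and which can oppose signalling through TIE2, was the 1 gene of the vascular lists to pass. It fell to 3.02 FPKM in the Cd248 KO library, against 7.38, 8.15 and 7.80 FPKM in the wild type libraries. The wild type values were tight and the knockout value was 0.388 of their mean. The difference was -1.13 (SE 0.10, limma adjusted p = 0.0332). The call was lost with a pseudocount of 0.1 FPKM (adjusted p = 0.0646), with no filter (0.0637), with the immunoglobulin genes left out (0.114) and without wild type replicate 1 (0.146), 2 (0.198) or 3 (0.223). Leaving out the immunoglobulin genes, here and below, also scaled the remaining FPKM to the same total in every library. Angpt1, the TIE2 agonist made by mural cells, was at 2.20 against 2.34 ± 0.21 FPKM (difference -0.06). The 5 tested genes of the angiopoietin list held 1 that fell and 0 that rose. Of the other named members of that list, Ptprb, a phosphatase acting on TIE2, was at 7.05 against 9.29 ± 1.17 FPKM and Svep1 at 3.45 against 6.42 ± 1.56 FPKM.

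Of 7 tested partners of endoglin in the TGF-beta and BMP9 pathway, 0 passed and 6 lay below every wild type library, with a median of -0.26. Acvrl1, the ALK1 receptor that signals with endoglin, was at 7.96 FPKM in the Cd248 KO library against 9.98 ± 0.753 FPKM in wild type. Tgfbr2, a TGF-beta receptor, was at 30.6 against 37.7 ± 4.78 FPKM, Smad5, a transducer of BMP signals, at 14.4 against 16.9 ± 0.775 FPKM and Smad7, a feedback inhibitor, at 5.90 against 7.29 ± 0.751 FPKM. The ligand gene Gdf2, which encodes BMP9, was listed at 0 to 0.02 FPKM.

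Genes associated with one vascular bed gave mixed values. Of 5 tested glomerular endothelial genes, 0 passed, 1 lay below and 2 above every wild type library, and their median was 0.04, whose sign changed with the same FPKM total (-0.09), with quantile normalization (-0.03), with the immunoglobulin genes left out (-0.0090) and without wild type replicate 3 (-0.21). Without wild type replicate 1 or 2 it was 0.13. Plat, tissue plasminogen activator, was at 31.1 FPKM in the Cd248 KO library against 31.2 ± 8.71 FPKM in wild type. Mapt, which encodes tau, was at 9.73 against 7.34 ± 0.276 FPKM (limma adjusted p = 0.320), Lpl (lipoprotein lipase) at 11.4 against 10.4 ± 0.293 FPKM and Tbx3, a T-box factor, at 1.57 against 2.80 ± 0.966 FPKM. Several of these genes are expressed by other kidney cells too.

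Of 6 peritubular capillary genes, 0 passed, 4 lay below and 2 above every wild type library, with a median of -0.46 that was -0.21 without wild type replicate 2. Igfbp3, a binding protein of insulin-like growth factors, was at 36.0 FPKM in the Cd248 KO library, against 80.5, 82.9 and 67.65 FPKM in the wild type libraries (difference -1.07, limma adjusted p = 0.136). Aplnr, the apelin receptor, was at 8.36 against 14.9 ± 1.85 FPKM (difference -0.76, limma adjusted p = 0.274). Cd36, a fatty acid transporter of capillaries and other cells, lay above every wild type library, at 39.3 FPKM in the Cd248 KO library against 14.3, 22.5 and 29.6 FPKM (difference 0.86, limma adjusted p = 0.543). Igfbp5 was at 30.4 against 49.9 ± 28.4 FPKM, a mean set by replicate 2 at 82.6 FPKM.

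Arterial, venous and lymphatic genes gave no call either. Of 9 arterial genes, 0 passed and 6 lay below every wild type library (median -0.30, or -0.19 without wild type replicate 1). Fbln5 was at 20.7 FPKM in the Cd248 KO library against 31.0 ± 4.04 FPKM in wild type. Cxcl12 was at 11.6 against 16.9 ± 5.10 FPKM. Efnb2, the arterial ephrin, was at 9.92 against 11.2 ± 1.27 FPKM. Dll4, a Notch ligand of arterial and tip cells, was at 4.03 against 6.32 ± 0.886 FPKM. Of 3 tested venous and vasa recta genes, 0 passed and 2 lay below (median -0.21). Ephb4, the venous receptor of that ephrin, was at 19.5 against 22.7 ± 0.851 FPKM. Nr2f2 was at 12.8 against 14.8 ± 0.592 FPKM and Slc14a1 at 1.64 against 2.23 ± 0.861 FPKM. Ackr1, under the filter, was at 0.10 against 0.167 ± 0.0404 FPKM. Of 6 lymphatic genes, 0 passed and 5 lay below (median -0.44). Pdpn was at 16.9 against 22.9 ± 3.42 FPKM and Ccl21a at 8.02 against 14.0 ± 4.72 FPKM. Flt4 (VEGFR3) was at 3.13 against 4.44 ± 0.609 FPKM and Mmrn1 at 0.54 against 1.19 ± 0.567 FPKM.

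Of 9 tested genes of activated or angiogenic endothelium, Angpt2 fell, 0 rose, and 7 lay below and 2 above every wild type library (median -0.77). Those below included tip cell genes. Esm1, a proteoglycan of VEGF-stimulated tip cells, was at 8.70 FPKM in the Cd248 KO library, against 16.9, 19.3 and 11.4 FPKM in the wild type libraries (limma adjusted p = 0.483). Cxcr4, a chemokine receptor also carried by leukocytes, was at 8.21 against 15.5 ± 2.75 FPKM (limma adjusted p = 0.315). The adhesion genes were divided. Vcam1, at 54.4 against 43.1 ± 6.92 FPKM, and Icam1, at 28.2 against 26.1 ± 0.43 FPKM, were the ones above, while Selp (P-selectin) lay below every wild type library, at 0.62 FPKM in the Cd248 KO library against 1.96, 1.44 and 1.16 FPKM. Vcam1 and Icam1 are also expressed by injured tubule cells and leukocytes.

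**Figure D4:**
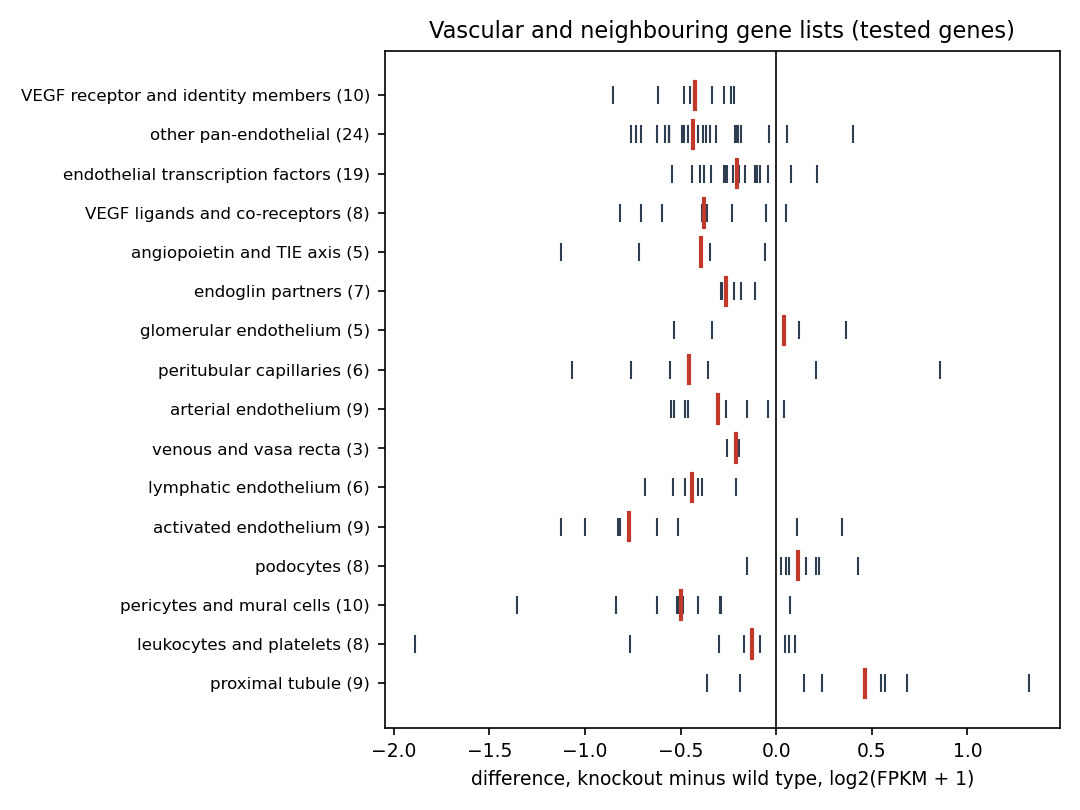
Difference of the Cd248 KO library from the wild type mean on the log2(FPKM + 1) scale (horizontal) for each tested gene (ticks) of 16 gene lists (vertical, number of tested genes in brackets), with the median of each list as a thick bar. Medians of the endothelial and mural lists lie between -0.77 and -0.21 except the glomerular endothelial list (0.04). Those of podocytes (0.11, or -0.014 with the same FPKM total) and proximal tubule (0.47, or 0.13 without wild type replicate 1) lie above 0. Negative medians were not limited to vascular lists. They were -1.82 for urothelium, -0.46 for immediate early and heat shock genes and -0.13 for leukocyte and platelet markers. That of plasma cell genes was 1.12.

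Markers of other cells moved in several directions in the same library, and their part in the endothelial values was not tested. Median differences were -1.82 for urothelium, -0.46 for immediate early and heat shock genes and 1.12 for plasma cell genes. For pericyte and mural markers the outcome below depended on scaling, since with the same FPKM total a marker was called lower. Of 10 pericyte and mural markers, 0 passed and 9 lay below every wild type library (median -0.50), and they summed to 100.3 FPKM in the Cd248 KO library and to 126 to 157 FPKM in the wild type libraries. Leukocyte and platelet markers, relevant because these cells carry CD31, summed to 113 FPKM in the Cd248 KO library, inside the wild type values of 191, 112 and 133 FPKM (0 of 8 tested passed, 2 below every wild type library). The knockout sum was hardly above that of wild type replicate 2 (112.7 against 112.4 FPKM). The 2 genes below were the platelet genes Ppbp, at 3.41 against 26.5, 14.7 and 9.05 FPKM, and Pf4, at 11.5 against 37.3, 12.3 and 17.9 FPKM. Another platelet gene, Itga2b, lay above every wild type library, at 0.85 against 0.72, 0.78 and 0.80 FPKM. The median of the leukocyte and platelet markers, -0.13, became -0.02 when wild type replicate 1 was left out and -0.24 when replicate 2 was. Proximal tubule markers summed to 292 FPKM in the Cd248 KO library, inside the wild type range of 121 to 335 FPKM (0 of 9 passed). Their median, 0.47, became 0.13 when wild type replicate 1 was left out and 0.73 when replicate 3 was. Urothelium markers, from the lining of the renal pelvis, summed to 11.6 FPKM in the Cd248 KO library and to 20.9 to 85.4 FPKM in the wild type libraries (0 of 6 passed, 6 below every wild type library), and Upk2 was listed at 0 in the knockout library. Immediate early and heat shock genes, which respond to handling, summed to 171 FPKM in the Cd248 KO library and to 181 to 261 FPKM in the wild type libraries (0 of 10 passed, 9 below every wild type library). Of 6 tested plasma cell genes, Mzb1, Jchain and Derl3 rose, and the list summed to 413 FPKM in the Cd248 KO library and to 72.9 to 95.8 FPKM in the wild type libraries. The calls of Jchain and Derl3 were lost without wild type replicate 2 (adjusted p = 0.0987 and 0.0852) or 3 (0.119 and 0.122), with a pseudocount of 0.1 FPKM (0.0573 and 0.0644) and with no filter (0.0837 and 0.0511). That of Derl3 was also lost without replicate 1 (0.116) and with the immunoglobulin genes left out (0.0602), and its mean was too low for a filter at 2 FPKM.

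Podocytes share the glomerulus with the endothelium that Ehd3 marks. Of 8 podocyte markers, 0 passed, 0 lay below and 1 above every wild type library, and they summed to 128 FPKM in the Cd248 KO library, inside the wild type values of 146, 114 and 106 FPKM. Their median difference on the log2(FPKM + 1) scale was 0.11, and its sign changed with the same FPKM total (-0.014). Leaving out wild type replicate 1 gave 0.23, and leaving out replicate 2 or 3 gave 0.06.

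Some members overlap genes on the other strand in GENCODE M21, and the sources used here do not say whether counting used strand. Eng overlaps Fpgs, which was at 8.65 FPKM in the Cd248 KO library against 6.93 to 7.93 FPKM in wild type. Plvap overlaps Gtpbp3, at 5.79 against 5.42 to 5.99 FPKM. Cdh5 overlaps the antisense gene Gm29682, whose level was not analysed here. The part of these overlaps in the values of Eng, Plvap and Cdh5 was not tested.

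In the authors' deposited table, 0 of 10 members are marked as significant, against 263 of 33679 genes, which is 0.781%. That table gives Cdh5 a log2 fold change of -0.91, the largest of the members, and Kdr one of -0.26. The q-values in the authors' deposited table, rounded to 2 decimals, are 0.00 for Cdh5, 0.09 for Eng and between 0.35 and 1 for the other 8. All 263 marked genes there have a log2 fold change of 1 or more in size, which Cdh5 does not reach.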

How the data were processed

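Values were deposited by the authors as FPKM per gene, rounded to 2 decimals, per the file headers. Adapters and alignment are covered by cutadapt 1.9, FastQC and HISAT2 2.0.4 with build mm10, per the submitters' processing notes, which give no roles. The sources used here do not name the program that made the FPKM. The authors' deposited table also holds a fold change (a ratio of the knockout library to the wild type mean), its log2, a p-value and a q-value from a test that is not named.

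Read depth is unknown: products of low FPKM and transcript length did not cluster at multiples of a single read, so counting intervals could not be given. A listed 0 may be a failed estimate. Groups and replicate numbers came from the sample titles. Values were analysed as log2(FPKM + 1) with limma 3.58.1 (R 4.3.3), a moderated linear model with a variance trend, two-sided, on the 16871 genes averaging 0.5 FPKM or more, with Benjamini-Hochberg adjustment and a threshold of 0.05. Only the 3 wild type libraries inform the spread (2 residual degrees of freedom), and the same spread is assumed for the lone knockout library. The fit was also run on simulated data, whose outcome is not given here, so its power at differences of the size seen in the members is not stated. The comparison had been planned with every library of both genotypes that had values. 

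Members and the 19 other gene lists were chosen with earlier results of these data known. Lists were described by counts and medians, with no set test. Named genes were the members, Cd248, the genes of each list that passed the test, the up to 4 with the highest mean FPKM in each list, and the 5 genes nearest in profile to the members. Ecscr, Ramp2, Selp, Gdf2, Upk2, Ppbp and Itga2b, and the overlapping genes Fpgs and Gtpbp3, fell outside this rule and were added after values were seen. Markers of non-endothelial cells are mostly given as sums and counts, so the highest genes of those lists are not all named. A planned podocyte marker is not reported here. Coordinates are from GENCODE M21 (GRCm38, the same build as mm10). Promoters are from RefSeq.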

Additional observations from a re-analysis of the deposited data

How the results depend on the processing

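All 10 members kept a negative difference and an adjusted p above 0.05 in each of 10 alternatives (100 of 100 values, adjusted p between 0.211 and 0.922): a pseudocount of 0.1 FPKM, no filter, a filter at 2 FPKM, the same FPKM total, quantile normalization, the immunoglobulin genes left out, no variance trend, and each wild type replicate left out. The number of members called stayed at 0. The members' median of -0.43 became -0.55 with the same FPKM total and ranged from -0.46 to -0.34 without 1 wild type replicate. The number of genes called lower, 14, became 6 with a pseudocount of 0.1 FPKM, 4 with no filter, 24 with the same FPKM total, 1 with the immunoglobulin genes left out, and 1 to 4 without 1 wild type replicate. The number called higher, 108, became 33 with a pseudocount of 0.1 FPKM, 201 with no filter, 5 with the immunoglobulin genes left out, and 41 to 72 without 1 wild type replicate. The alternative with the immunoglobulin genes left out changed 2 things at once. Those genes could no longer be counted as called, and the remaining FPKM were also scaled to the same total. The causes of these changes in number were not tested. The log2 differences of 2 ratios changed sign without wild type replicate 2: Flt1 to Kdr (-0.08, then 0.06) and Tek to Tie1 (-0.0028, then 0.06). No paired analysis was possible because the groups share 1 replicate number among the libraries with values. With unknown depth and 1 knockout library, no value here carries a counting error or a spread of its own on the knockout side.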

Other observations

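Vegfa is induced by hypoxia. Of 9 hypoxia response genes, Vegfa among them, 0 passed limma's test, with 3 below and 1 above every wild type library. Their median difference was -0.25, or -0.08 without wild type replicate 2. Ndrg1 was at 186 FPKM in the Cd248 KO library against 123 ± 7.25 FPKM in wild type (SD, n = 3; limma adjusted p = 0.262), and Slc2a1, a glucose transporter, at 10.4 against 14.3 ± 3.16 FPKM. Bnip3 was at 26.9 against 24.9 ± 3.54 FPKM.

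The genes outside all lists whose centred log2(FPKM + 1) values over the 4 libraries lay nearest to the mean profile of the members were Dsp, Btbd3, Ak1, Slco4a1 and Tspan12, out of 8481 ranked genes whose mean reached 5 FPKM. Their root mean square differences from that profile ran from 0.01 to 0.02 on the log2 scale. The members themselves lay farther from it, from 0.043 for Tek to 0.197 for Cdh5. Nearness to this profile is thus not particular to endothelial genes. Dsp, which encodes the desmosome protein desmoplakin of epithelia, was at 7.93 FPKM in the Cd248 KO library, against 10.7, 12.5 and 10.1 FPKM in the wild type libraries.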
